A study of Homo sapiens with 6 samples.

Results

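This account covers 10 transcription factors of the B lineage, PAX5, EBF1, TCF3, IKZF1, IKZF3, BACH2, POU2AF1, LEF1, FOXO1 and RUNX1, in asparagine-depleted leukemia cells and in cells with asparagine. They were chosen by name, from what these factors are known to do, but with earlier results of these data known. All 10 have a row among the 11911 genes of the table. The cells are RS4;11, a human line established from acute lymphoblastic leukemia of B precursors, with a KMT2A::AFF1 fusion. The asparagine-depleted group has 3 libraries, from cells kept without asparagine for 16 hours before RNA was collected, and the group with asparagine has 3 libraries. By the labels the medium of both groups is entered in the same words, with dialyzed serum, so which serum the cells with asparagine were given is not known. All libraries come from a single line, and nothing in the labels says that libraries of a group were grown as separate cultures, so each p reflects only the spread between these libraries, and that spread may be technical.

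B-lineage cells are made in steps by a small set of DNA-binding proteins, an order worked out mainly in mouse. The E proteins encoded by TCF3, together with FOXO1, help to switch on EBF1, and EBF1 and TCF3 products activate PAX5, which holds cells in the lineage by turning on B-cell genes and turning off those of other lineages. IKZF1, RUNX1, LEF1, POU2AF1 and BACH2 act beside them during the pro-B and pre-B steps, and several of these genes are recurrently mutated, deleted or rearranged in precursor B leukemia.

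The values are normalized CPM, the reads of a gene scaled by the authors within each library by a rule that is not stated. The libraries hold 29971364 to 51127073 reads in the table. Values summed to 918783 to 952458 CPM in depleted libraries and 1018766 to 1031234 CPM in libraries with asparagine. Of the depleted libraries, library 1 stood apart. Its log2 values correlated with those of libraries 2 and 3 at a Pearson's r of 0.940 and 0.933 over genes (genes are not replicates), against 0.996 between libraries 2 and 3 and 0.992 to 0.996 among libraries with asparagine. The gap followed the base composition of transcripts. Among genes with transcripts of 59.1% to 87.9% GC, the median log2 difference from the mean with asparagine was -0.09, -0.86 and -0.89 in depleted libraries 1 to 3, and among genes of at most 42.5% GC it was 0.03, 0.81 and 0.87. The transcripts of the 10 factors range from 44.3% GC in EBF1 to 61.4% in TCF3, so changes are also given after a correction for GC content. They are given without depleted library 1 as well. That fit keeps depleted libraries 2 and 3, which hold the larger GC differences, so it is no check on GC content. Of 10 markers of a KMT2A-rearranged B precursor, all 10 had values, with sums of 3767 to 4125 CPM in depleted libraries and 3646 to 3815 CPM in libraries with asparagine. PAX5 and EBF1, both among the factors, are counted in those sums. PAX5 makes up the largest share, and single markers moved both ways. CSPG4, which encodes the surface proteoglycan NG2 of KMT2A-rearranged leukemia, fell to 59.7 ± 24.5 CPM in depleted cells, against 438 ± 43.4 CPM with asparagine (log2 fold change -2.92, limma adjusted p = 0.000457), DNTT was lower (-0.79, adjusted p = 0.00440) and PROM1 was higher (0.95, adjusted p = 0.00663). Values are given in the table for 2 of 9 T cell markers (summed to 12.3 to 15.2 CPM in depleted libraries and 7.53 to 9.02 CPM with asparagine), 3 of 9 myeloid markers (28.95 to 52.4 and 69.8 to 75.2 CPM), 2 of 5 NK markers (44.4 to 74.9 and 60.6 to 69.9 CPM) and 0 of 6 erythroid markers. In these bulk libraries, fewer cells of a type and less RNA per cell cannot be told apart.

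After asparagine was removed, 4 of the 10 factors rose, POU2AF1, BACH2, FOXO1 and PAX5, and 2 fell, TCF3 and LEF1. The other 4, EBF1, IKZF1, IKZF3 and RUNX1, did not pass the test (limma over 11892 genes, two-sided, Benjamini-Hochberg adjusted p under 0.05). In that fit 25.1% of all genes were higher, 26.2% lower and 51.3% either, so 6 of 10 is near the share of all genes. After the GC correction 4 factors were higher and 3 lower, where 69.5% of all genes passed, and without depleted library 1 the counts were 6 and 3, where 81.8% did. With the deposited values, no factor moved by as much as 2-fold on the average of all libraries. Beyond 2-fold were POU2AF1 after the GC correction (1.13 in log2) and TCF3 without depleted library 1 (-1.16). With the correction and without that library, POU2AF1 (1.22) and BACH2 (1.07) were. Among ratios of the deposited means, the highest was 1.68-fold for POU2AF1, and the lowest level relative to cells with asparagine was 0.549-fold, for TCF3. Values of the groups did not overlap for 8 factors, 5 with every depleted library above and 3 with every depleted library below, where 61.1% of all genes had groups that did not overlap (30.2% above and 30.8% below). The median log2 fold change was 0.29 for the 10 factors and 0.01 for all genes tested.

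**Figure D1:**
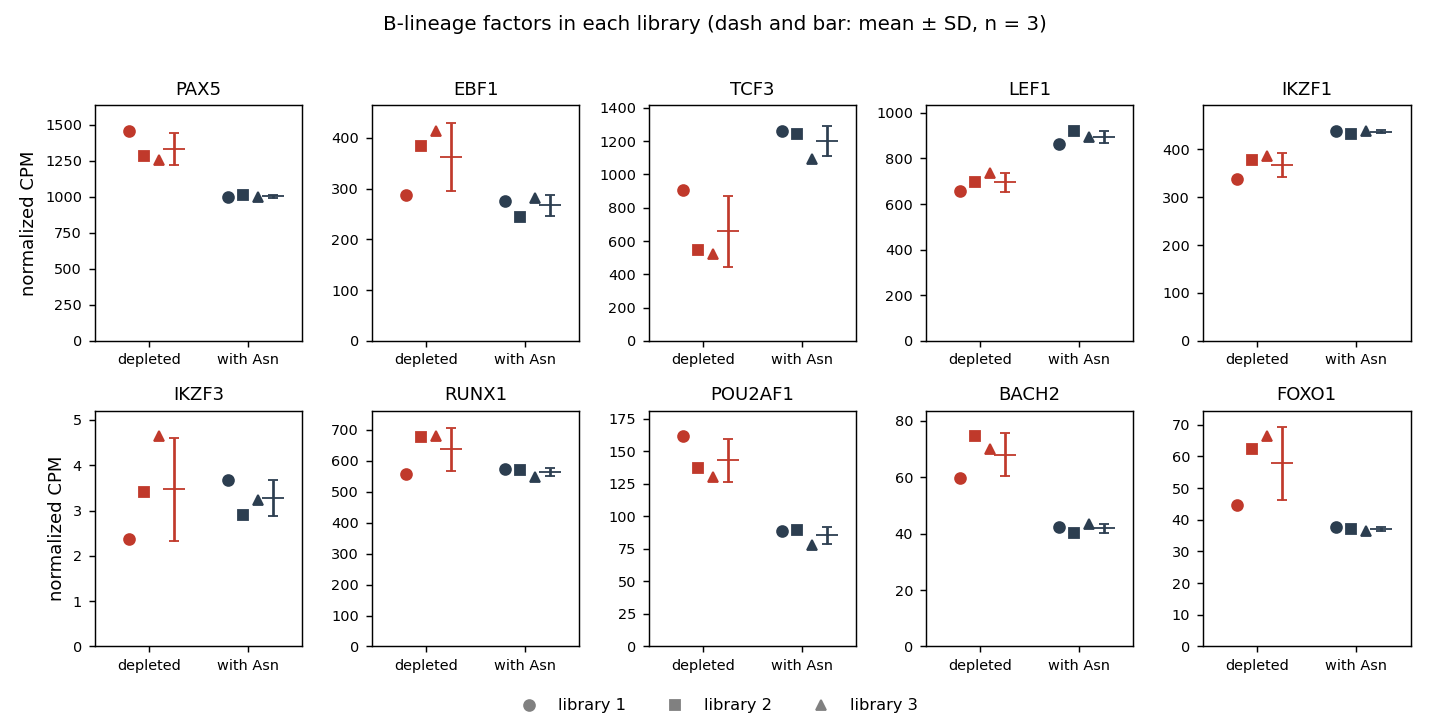
Normalized CPM (vertical axes, each from 0) of the 10 factors in asparagine-depleted libraries (red) and libraries with asparagine (dark blue), with circles, squares and triangles for libraries 1, 2 and 3 and a dash with a bar for the mean ± SD (n = 3 each). PAX5, POU2AF1, BACH2, FOXO1 and EBF1 lie higher in every depleted library, TCF3, LEF1 and IKZF1 lie lower, and the groups overlap for RUNX1 and IKZF3.

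The factors that stand at the head of the program are shown with their promoters as RefSeq gives them on GRCh38.p14, 250 bases before to 50 bases after the start. TCF3 fell, PAX5 rose and EBF1 did not pass. The log2 fold change of EBF1 (0.42) was close to that of PAX5 (0.41), and no test compared the genes with each other. RefSeq windows were at hand for 8 of the 10 factors (10 windows in all). Capitals mark matches, on either strand, to a core of the amino acid response element (TGATGNAA), an E-box bound by E proteins (CAGNTG), the octamer (ATTTGCAT), a core of the EBF site (CCCNNGGG) or a loose RUNX string (TGNGGT, any base at N). These occur in 3.62%, 49.9%, 1.77%, 19.1% and 43.2% of 35116 RefSeq promoter windows of the same length. The PAX5 window (chr9:37034219-37034518, minus strand) holds none of them. The TCF3 window (chr19:1652566-1652865, minus strand) holds a match to the loose RUNX string at bases 76 to 81. That match is ACCTCA, which reads TGAGGT on the other strand, and the string is looser than the known RUNX core. The EBF1 window (chr5:159097907-159098206, minus strand) holds an E-box at bases 16 to 21 and the amino acid response core at bases 102 to 109, the second read on the other strand. No matches overlap in these windows. A match is a string of letters only, and binding was not measured.
PAX5: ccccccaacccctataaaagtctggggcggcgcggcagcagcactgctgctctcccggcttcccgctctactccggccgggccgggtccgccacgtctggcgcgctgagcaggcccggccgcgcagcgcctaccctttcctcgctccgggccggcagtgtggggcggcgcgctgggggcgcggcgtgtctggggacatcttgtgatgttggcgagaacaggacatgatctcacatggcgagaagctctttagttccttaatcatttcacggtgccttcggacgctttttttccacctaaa
TCF3: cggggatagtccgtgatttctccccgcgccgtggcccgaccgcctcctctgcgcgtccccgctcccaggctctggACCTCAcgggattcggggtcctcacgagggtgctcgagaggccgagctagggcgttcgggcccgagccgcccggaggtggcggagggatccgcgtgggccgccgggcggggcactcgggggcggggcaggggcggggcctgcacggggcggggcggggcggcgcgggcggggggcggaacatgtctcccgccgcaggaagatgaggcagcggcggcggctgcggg
EBF1: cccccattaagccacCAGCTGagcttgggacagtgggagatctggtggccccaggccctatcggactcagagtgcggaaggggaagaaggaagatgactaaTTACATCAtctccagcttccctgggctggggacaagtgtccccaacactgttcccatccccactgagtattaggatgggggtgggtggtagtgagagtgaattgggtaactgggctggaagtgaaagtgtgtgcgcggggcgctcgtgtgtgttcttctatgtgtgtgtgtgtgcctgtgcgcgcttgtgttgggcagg
The TCF3 window is 78.3% GC, against 65.0% for PAX5 and 57.0% for EBF1.

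TCF3 (chromosome 19, 1609290 to 1652605 on GRCh38 in GENCODE 29) encodes E12 and E47, the E proteins that start the B-cell program. It had 905, 547 and 524 CPM in depleted libraries 1, 2 and 3, against 1263, 1243 and 1094 CPM in libraries 1, 2 and 3 with asparagine. Every depleted library lay below every library with asparagine, and libraries 2 and 3 lay lower than library 1. TCF3 averaged 659 ± 214 CPM in depleted cells and 1200.3 ± 92.2 CPM with asparagine (SD, n = 3 each), which gives -0.91 on the log2 scale (SE 0.22, limma adjusted p = 0.0138). It is the most GC-rich of the 10, and the GC correction moved the change to -0.34 (adjusted p = 0.000556), with -0.33, -0.33 and -0.36 in depleted libraries 1, 2 and 3. Without depleted library 1 it was -1.16 (adjusted p = 2.37e-07), and -0.35 with the correction as well (limma adjusted p = 1.77e-05). The call ended without depleted library 2 (limma adjusted p = 0.0533) and without library 1 or 2 with asparagine (0.0564 and 0.0552).

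PAX5 (chromosome 9, 36833275 to 37034185), the commitment factor, moved the other way. It had 1460.4, 1283 and 1257 CPM in the depleted libraries, against 998, 1016 and 999 CPM with asparagine. The libraries with asparagine were close to each other and all depleted libraries stood above them. PAX5 averaged 1333 ± 111 CPM in depleted cells and 1004 ± 10.4 CPM with asparagine, higher by 0.41 in log2 units (SE 0.10, limma adjusted p = 0.0170). Correcting for GC gave 0.86 (adjusted p = 0.000425), with 0.59, 0.98 and 0.99 in the depleted libraries, and without depleted library 1 it was 0.34 (adjusted p = 0.000185). Its call ended without depleted library 2 (limma adjusted p = 0.0555) and without library 1, 2 or 3 with asparagine (0.0695, 0.0695 and 0.0648).

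EBF1 (chromosome 5, 158695916 to 159099761) encodes the pioneer-type factor that acts with PAX5 at many B-cell genes. Its values were 287, 385 and 414 CPM in depleted cells, against 276, 244 and 282 CPM with asparagine. Depleted library 1 lay just above the highest library with asparagine, and depleted libraries 2 and 3 well above it. The log2 fold change of EBF1 was 0.42 (95% interval 0.033 to 0.81, limma adjusted p = 0.0672), which did not pass. Its transcripts are the least GC-rich of the 10, and correcting for GC left a change of 0.10 (adjusted p = 0.177), with 0.054, 0.084 and 0.16 in the depleted libraries. It was 0.58 and passed without depleted library 1 (limma adjusted p = 6.28e-05), and 0.63 with quantile normalization (adjusted p = 0.0277).

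FOXO1 (chromosome 13, 40469953 to 40666597) encodes a forkhead factor that induces recombination genes in B precursors and that growth factor signals keep out of the nucleus, so its RNA is not its activity. It had 44.8, 62.2 and 66.4 CPM in the depleted libraries, against 37.7, 37.0 and 36.4 CPM with asparagine. Its groups did not overlap, and depleted library 1 was the lowest of its group. FOXO1 averaged 57.8 ± 11.4 CPM in depleted cells and 37.1 ± 0.653 CPM with asparagine, an increase of 0.61 in log2 (SE 0.17, limma adjusted p = 0.0241). The change was 0.41 after the GC correction (adjusted p = 0.00606) and 0.78 without depleted library 1 (adjusted p = 8.65e-06). Leaving out depleted library 2 or 3 ended the call (limma adjusted p = 0.0883 and 0.0801), as did leaving out library 1, 2 or 3 with asparagine (0.0794, 0.0837 and 0.0781).

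POU2AF1 and BACH2 had the largest log2 increases of the 10 with all libraries, and their calls held in all 21 alternative fits. Without depleted library 1 the increase of FOXO1 (0.78) was close to that of BACH2 (0.77) and above that of POU2AF1 (0.64, limma adjusted p = 4.69e-05). POU2AF1 (chromosome 11, 111352252 to 111455630) encodes the coactivator OCA-B, which binds the octamer factors POU2F1 and POU2F2. It had 162, 137 and 130.4 CPM in depleted cells, against 88.7, 89.7 and 77.8 CPM with asparagine, and the lowest depleted library lay well above the highest library with asparagine. The POU2AF1 log2 fold change was 0.73 (SE 0.13, limma adjusted p = 0.00505). With the GC correction it was 1.13 (adjusted p = 2.2e-05), that is 0.96, 1.24 and 1.20 in depleted libraries 1, 2 and 3. BACH2 (chromosome 6, 89926529 to 90296908) encodes a repressor that pairs with small MAF proteins and is known in mouse to act at the pre-B cell receptor checkpoint. BACH2 had 59.6, 74.5 and 70.0 CPM in depleted cells, against 42.2, 40.2 and 43.3 CPM with asparagine. All depleted libraries stood above the group with asparagine, library 1 the least. Its log2 fold change was 0.68 (SE 0.13, limma adjusted p = 0.00627), 0.88 after the GC correction (adjusted p = 0.00181) and 0.77 without depleted library 1 (adjusted p = 9.73e-06).

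LEF1 (chromosome 4, 108047545 to 108168956) encodes an HMG-box factor of the WNT pathway that early B precursors also use. It had 655, 695 and 738 CPM in the depleted libraries, against 865, 922 and 894 CPM with asparagine. The groups were apart and their values were even within each. LEF1 averaged 696 ± 41.1 CPM in depleted cells and 894 ± 28.1 CPM with asparagine, lower by a log2 difference of -0.36 (SE 0.10, limma adjusted p = 0.0230), -0.35 when corrected for GC (adjusted p = 0.00364) and -0.32 without depleted library 1 (adjusted p = 0.000622). Of the 6 calls among the factors, that of LEF1 was lost in the most alternatives, 7 of 21. These were the fits without depleted library 2 or 3 (limma adjusted p = 0.0858 and 0.0541), without library 1, 2 or 3 with asparagine (0.0728, 0.107 and 0.0824), with the replicate number as a block (0.0624) and with quantile normalization (-0.15, adjusted p = 0.312). An antisense gene, LEF1-AS1, shares 279 exon bases with LEF1, 5.20% of its merged exons. Since no strand setting is stated, reads of the shared bases cannot be told apart. LEF1-AS1 itself had 18.4, 16.6 and 14.0 CPM in depleted cells, against 25.1, 24.5 and 23.8 CPM with asparagine (log2 fold change -0.56, limma adjusted p = 0.0166). For the other factors, exons of genes on the opposite strand cover at most 4.05% of the merged exons (BACH2), and LINC00598 on the same strand shares 269 exon bases with FOXO1 (4.32%).

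The Ikaros genes did not pass. IKZF1 (chromosome 7, 50304068 to 50405101) encodes Ikaros, a zinc finger factor and tumor suppressor of precursor B leukemia. It had 339, 377 and 386 CPM in depleted cells, against 438, 433 and 439 CPM with asparagine, so every depleted library lay below a tight group. The IKZF1 log2 fold change was -0.25 (95% interval -0.50 to -0.0013, limma adjusted p = 0.0838). It passed after the GC correction (-0.24, adjusted p = 0.0239) and without depleted library 1 (-0.19, adjusted p = 0.0113), and was -0.0081 with quantile normalization (adjusted p = 0.958). IKZF3 (chromosome 17, 39757715 to 39864188) encodes Aiolos, the Ikaros relative that follows at later B-cell steps. It was close to silent, at 2.37, 3.40 and 4.64 CPM in depleted cells, against 3.68, 2.90 and 3.23 CPM with asparagine, on 101 to 173 reads per library. Its groups overlapped, and the log2 fold change of 0.039 (95% interval -0.45 to 0.53, limma adjusted p = 0.884) changed sign under 5 alternatives.

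RUNX1 (chromosome 21, 34787801 to 36004667) encodes a DNA-binding partner of the core-binding factor CBFB. It had 557, 676 and 679 CPM in depleted cells, against 572, 571 and 548 CPM with asparagine. Depleted library 1 lay within the group with asparagine, while libraries 2 and 3 lay above it. The RUNX1 log2 fold change was 0.17 (95% interval -0.11 to 0.45, limma adjusted p = 0.253). It was 0.27 and passed without depleted library 1 (limma adjusted p = 0.00157). The GC correction also gave 0.27, which did not pass (adjusted p = 0.0877).

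**Figure D2:**
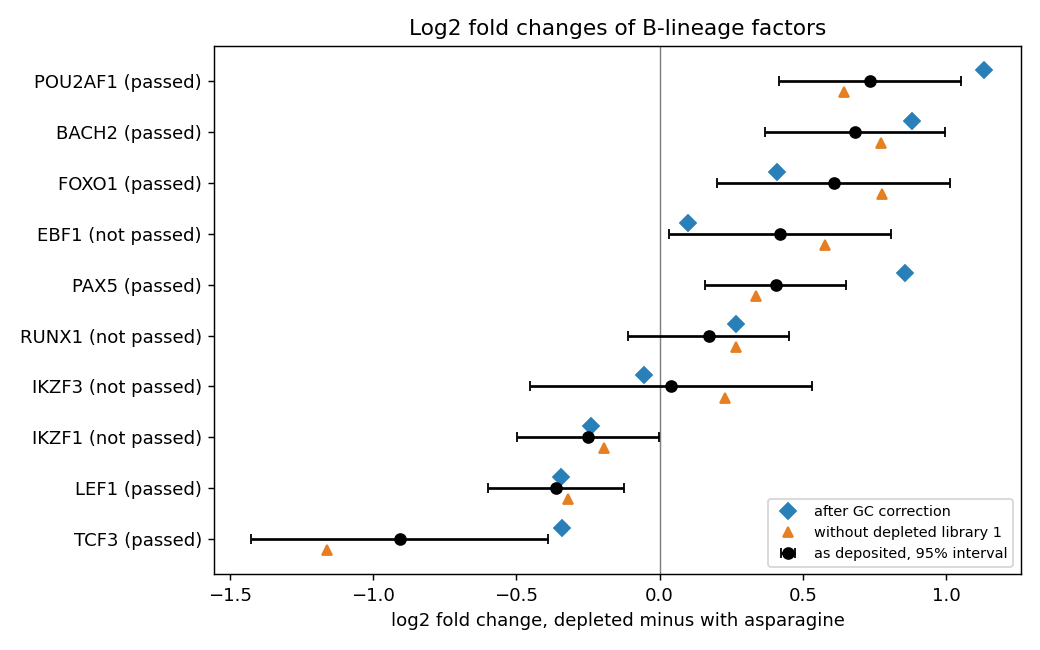
Log2 fold change, depleted minus with asparagine (horizontal axis), for each factor. Black points with bars are the fit to the deposited values with its 95% interval, blue diamonds the fit after the GC correction, and orange triangles the fit without depleted library 1. The GC correction took TCF3 from -0.91 to -0.34 and PAX5 from 0.41 to 0.86, and changed the side of zero only for IKZF3.

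Levels between genes were compared per kb of merged exons, which treats all exons of a gene as used. In depleted cells PAX5 was the most abundant factor per length, at 143 ± 11.9 CPM per kb, followed by LEF1 at 129.8 ± 7.67 and TCF3 at 108 ± 35.2, and neighbours among these 3 overlapped. With asparagine the order at the top was TCF3 at 197 ± 15.2 CPM per kb, LEF1 at 167 ± 5.24 and PAX5 at 108 ± 1.11, without overlap between neighbours. The exchange of places between TCF3 and PAX5 was uneven among the depleted libraries, since TCF3 ranged from 86.2 to 149 CPM per kb there. Below them in depleted cells stood EBF1 (58.6 CPM per kb), RUNX1 (40.9), IKZF1 (33.6), POU2AF1 (19.3), FOXO1 (9.27), BACH2 (6.95) and IKZF3 (0.347), where only FOXO1 and BACH2 overlapped. With asparagine IKZF1 (39.9 CPM per kb) stood above RUNX1 (36.2) and overlapped with EBF1 (43.3), and the order was otherwise the same.

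Family relatives and binding partners of the factors were read from the same fit, over a list written from textbook knowledge. Of 25 listed genes 19 were tested, and 7 were higher and 2 lower in depleted cells, with a median log2 fold change of 0.34 against 0.01 for all genes tested (25.1% higher and 26.2% lower). The count of higher genes was 12 without depleted library 1, 3 without depleted library 2, 4 without depleted library 3, 3 without library 1 or without library 2 with asparagine, and 11 after the GC correction. Of all genes, 40.5% were higher without depleted library 1 and 35.2% after the GC correction. Without depleted library 2 or 3, 1902 and 2054 of all 11892 genes were higher. Without library 1 or 2 with asparagine, 1756 and 1728 were. The lower genes were ID3, which encodes an inhibitor that binds E proteins and keeps them off DNA, and MAFK, a small MAF partner of BACH factors. ID3 had 41.9, 23.5 and 23.2 CPM in depleted cells, against 173, 181 and 143 CPM with asparagine, 5.61-fold lower, and its log2 difference was -2.50 (SE 0.25, limma adjusted p = 0.000577) and -2.10 after the GC correction. All depleted libraries were far below the other group. MAFK averaged 28.9 ± 12.2 CPM in depleted cells and 63.9 ± 4.53 CPM with asparagine (limma adjusted p = 0.0111). Its log2 difference was -1.19, and -0.51 after the GC correction. The E protein relative TCF12 (log2 fold change 0.097, limma adjusted p = 0.718) and the inhibitor ID2 (0.075, adjusted p = 0.611) did not pass.

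The 7 higher genes were IKZF2, TCF7L2, BACH1, ZNF423, RUNX2, POU2F1 and POU2F2. IKZF2, which encodes the Ikaros relative Helios, averaged 247 ± 124 CPM in depleted cells and 65.5 ± 17.2 CPM with asparagine, 3.77-fold higher (limma adjusted p = 0.0176), with 104 CPM in depleted library 1 and 311 and 326 CPM in libraries 2 and 3. TCF7L2, a relative of LEF1, was 2.05-fold higher at 36.0 ± 3.92 CPM (limma adjusted p = 0.00170), the opposite direction to LEF1. BACH1, the broadly expressed relative of BACH2, was 1.97-fold higher (adjusted p = 0.0359), and ZNF423, which encodes a zinc finger protein known to bind EBF factors, was 1.89-fold higher (adjusted p = 0.00930). RUNX2 was 1.69-fold higher at 100.4 ± 15.6 CPM (limma adjusted p = 0.00701), while CBFB, the partner of all RUNX proteins, did not pass (0.34, adjusted p = 0.115; 0.50 and adjusted p = 9.12e-05 without depleted library 1). The octamer partners of POU2AF1 both rose, POU2F1 by 1.77-fold (limma adjusted p = 0.0315) and POU2F2 by 1.62-fold (adjusted p = 0.0159). The calls of IKZF2, BACH1, POU2F1 and POU2F2 ended without depleted library 2 and without library 1 or 2 with asparagine, those of IKZF2, BACH1 and POU2F1 also without depleted library 3, and those of BACH1 and POU2F1 also without library 3 with asparagine. The highest limma adjusted p was 0.0677 for IKZF2, 0.121 for BACH1, 0.115 for POU2F1 and 0.0691 for POU2F2. With the GC correction the log2 fold changes of IKZF2, BACH1 and POU2F1 shrank to 1.33, 0.51 and 0.34 (1.76, 0.91 and 0.79 without it). TCF7L2 and RUNX2 stayed at 0.97 and 0.73 (0.99 and 0.74 without it). ZNF423 and POU2F2 grew to 1.22 and 1.18 (0.84 and 0.66 without it).

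**Figure D3:**
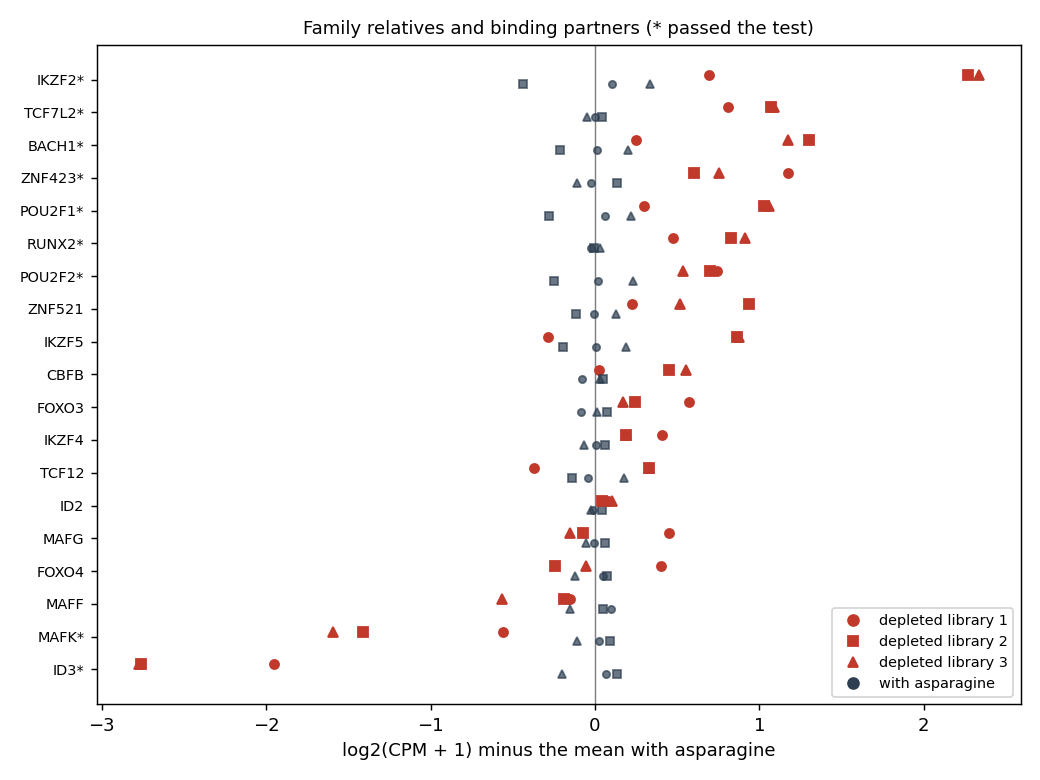
Family relatives and binding partners of the factors, as log2(CPM + 1) minus the gene's mean with asparagine (horizontal axis), with red symbols for depleted libraries 1, 2 and 3 and dark blue symbols for libraries with asparagine. An asterisk marks genes that passed the test, and ID3 and MAFK lie left of zero in all depleted libraries while the 7 higher genes lie right of it.

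Other lymphoid factors gave 9 higher and 3 lower of 20 tested (median log2 fold change 0.24), where 51.3% of all genes passed in either direction, so 12 of 20 is near that share. The lower count was 5 after the GC correction and 7 without depleted library 1, where 34.3% and 41.3% of all genes in those fits were lower. SPIB, an ETS factor of B cells, averaged 23.3 ± 5.84 CPM in depleted cells and 65.2 ± 4.29 CPM with asparagine, at -1.47 in log2 (SE 0.19, limma adjusted p = 0.00151). With the GC correction SPIB was at -0.86, IRF8 at -0.79 (-0.91 without it) and ERG at -0.67 (-0.44 without it). IRF8, an interferon regulatory factor, averaged 20.9 ± 2.46 and 39.9 ± 2.11 CPM (limma adjusted p = 0.00244), and ERG, an ETS factor, 128 ± 8.44 and 174 ± 8.28 CPM (adjusted p = 0.0172), with the depleted cells lower in both. Among the higher genes were XBP1, the plasma cell and unfolded protein response factor (2.37-fold, limma adjusted p = 0.000287), ZEB2 (2.24-fold, adjusted p = 0.00360), ELF1 (1.98-fold, adjusted p = 0.0132) and BCL11A, needed for B-cell development in mouse (1.87-fold, adjusted p = 0.00158). In log2 they stood at 1.24, 1.145, 0.95 and 0.89, and at 1.21, 0.82, 0.59 and 0.73 after the GC correction. The ELF1 call ended without depleted library 2 (limma adjusted p = 0.0511) and without library 1 or 2 with asparagine (0.0516 and 0.0569), and the ERG call ended without depleted library 3 (0.0501) without library 1, 2 or 3 with asparagine (0.0681, 0.0661 and 0.0811) and with quantile normalization (-0.33, 0.0518).

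Genes that EBF1, PAX5 and E proteins are known to activate were lower in 7 and higher in 2 of 16 tested, where 26.2% of all genes were lower, 25.1% higher and 51.3% either, with a median log2 fold change of -0.68 (-0.57 after the GC correction). The surrogate light chain genes fell most. VPREB1 had 169.9, 94.1 and 97.3 CPM in depleted cells, against 438, 455 and 420.1 CPM with asparagine (log2 fold change -1.91, SE 0.23, limma adjusted p = 0.00116), and IGLL1 averaged 256 ± 139.8 and 854 ± 70.8 CPM (-1.86, adjusted p = 0.00477). CD22, a B-cell inhibitory receptor, was lower at 166 ± 20.1 CPM in depleted cells and 312 ± 11.5 CPM with asparagine (limma adjusted p = 0.00174), and VPREB3 was lower as well (-1.20, adjusted p = 0.00794). The higher genes were FCRLA, an Fc receptor-like gene of B cells (2.60-fold, limma adjusted p = 0.000284), and BANK1, a B-cell adaptor gene (2.08-fold, adjusted p = 0.0264). With the GC correction VPREB1 was at -1.43, IGLL1 at -1.22, VPREB3 at -0.78 and CD22 at -0.66 (CD22 -0.91 without it). FCRLA was then at 1.26 and BANK1 at 0.43 (1.37 and 0.91 without it). The BANK1 call ended without depleted library 2 or 3 and without library 1 or 2 with asparagine (limma adjusted p = 0.0866, 0.0795, 0.0733 and 0.0972), and with quantile normalization (0.76, adjusted p = 0.0622).

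The values of some targets depended on the GC correction. CD79A, the signaling chain of the B-cell receptor, was at 0.016 (limma adjusted p = 0.950), at 0.56 with the correction (adjusted p = 4.29e-05), and at -0.21 without depleted library 1 (adjusted p = 0.0188). With the correction and without that library CD79A was at 0.57 (limma adjusted p = 6.36e-07). The recombination genes RAG1 and RAG2 did not pass, at -0.41 and -0.71 (limma adjusted p = 0.100 and 0.0671), and stood at -0.88 and -0.95 after the correction (adjusted p = 1.05e-05 and 0.00284). Both also passed without depleted library 1 (limma adjusted p = 0.0187 and 0.00543), and RAG2 without depleted library 3 (0.0442). After the correction 5 of the 16 were higher and 11 lower, where 35.2% of all genes with a GC value were higher and 34.3% lower. Without depleted library 1, 2 were higher and 12 lower, where 40.5% and 41.3% of all genes were.

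**Figure D4:**
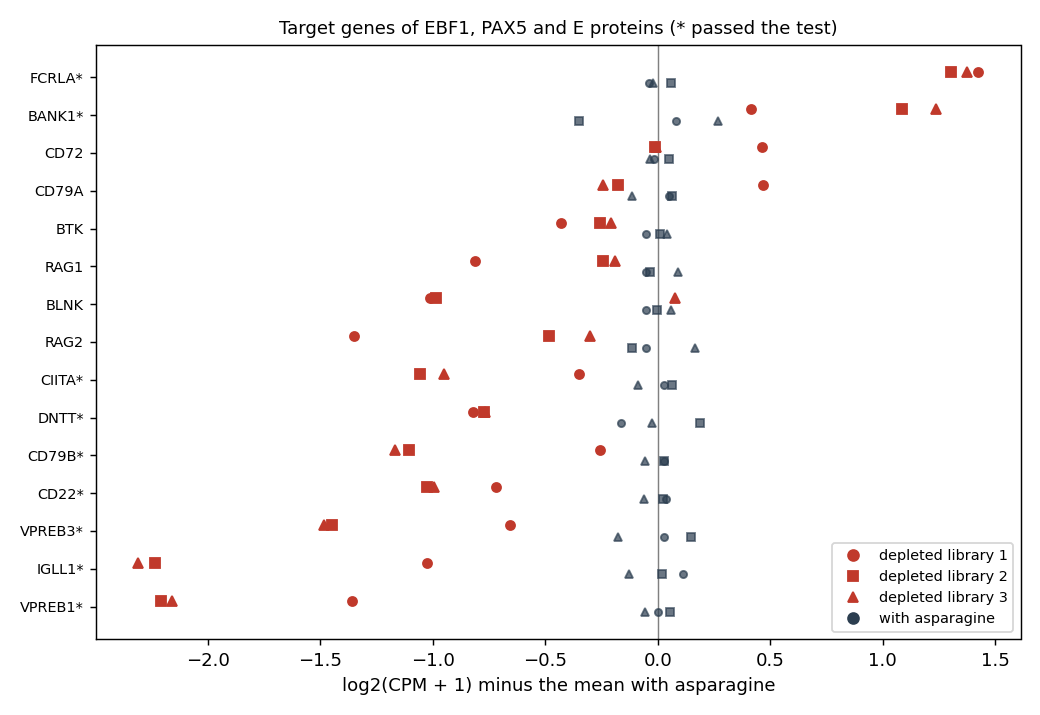
Genes known to be activated by EBF1, PAX5 and E proteins (all tested but 1), as log2(CPM + 1) minus the gene's mean with asparagine (horizontal axis), with red symbols for depleted libraries and dark blue symbols for libraries with asparagine. VPREB1 and IGLL1 lie furthest left, FCRLA furthest right, and for CD79A and CD72 depleted library 1 (circle) lies right of libraries 2 and 3.

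Known targets of FOXO factors were higher in 6 and lower in 2 of 11 tested (median log2 fold change 0.49), where 25.1% of all genes were higher and 26.2% lower. After the GC correction 7 were higher and 4 lower, where 35.2% and 34.3% of all genes with a GC value were. Without library 3 with asparagine 1 was lower, where 2177 of all 11892 genes were. Both lower calls ended without library 2 with asparagine, where 1814 of all genes were lower. KLF2, a factor of lymphocyte quiescence and trafficking, had 19.6, 10.7 and 10.0 CPM in depleted cells, against 1.49, 1.65 and 1.18 CPM with asparagine, 9.34-fold higher (log2 fold change 2.51, SE 0.26, limma adjusted p = 0.000662). Every depleted library lay several times above the other group. TXNIP, which limits glucose uptake, was 4.58-fold higher at 248 ± 23.6 CPM (limma adjusted p = 0.000104), CCNG2, a cyclin gene of arrested cells, 2.76-fold (adjusted p = 0.00268), and SESN3, a sestrin gene, 4.03-fold (adjusted p = 0.0138; 0.0503 and 0.0567 without library 1 or 2 with asparagine). Of the lower genes, BCL2L11, which encodes the death protein BIM, stood at -0.72 (limma adjusted p = 0.00949), a call that ended without library 2 with asparagine (0.0504). Other pathways also act on many of these genes.

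The remaining lists were short, with 3 of 4, 1 of 4 and 1 of 2 tested genes called, where 51.3% of all genes were. Of genes that PAX5 represses in mouse, 4 of 6 were tested, and FLT3, a growth factor receptor gene (1.82-fold, limma adjusted p = 0.00658), and EMB (1.81-fold, adjusted p = 0.0428) were higher and NOTCH1 lower (-0.88, adjusted p = 0.0186). EMB did not pass after the GC correction (0.13, limma adjusted p = 0.134), nor when any library other than depleted library 1 was left out (at most 0.144), and NOTCH1 did not pass without depleted library 2 or 3 or library 1 or 2 with asparagine (0.0650, 0.0605, 0.0751 and 0.0713). With the GC correction NOTCH1 shrank to -0.25 (limma adjusted p = 0.0150) and FLT3 went from 0.84 to 0.46 in log2. Among 4 tested genes that BACH factors repress, only FTL, the ferritin light chain gene, passed, and it was lower (375 ± 136 CPM in depleted cells and 768 ± 2.87 CPM with asparagine, limma adjusted p = 0.00899). Its log2 fold change was -1.09, and -0.74 after the GC correction. Of 8 targets of LEF1 and its relatives 2 were tested, and ZNRF3, which encodes a WNT feedback ligase, was 2.06-fold lower in depleted cells at 11.5 ± 0.292 CPM, against 23.7 ± 0.303 CPM with asparagine (limma adjusted p = 0.00107; -0.45 and adjusted p = 0.0775 after the GC correction).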

How the data were processed

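RNA of RS4;11 cells was sequenced in 3 asparagine-depleted libraries and 3 libraries with asparagine. The submitters' processing notes list GRCh38 as the build and name STAR, featureCounts, Subread and FastQC. How the authors scaled the counts, which annotation and strand setting they used and how low genes were dropped is not stated. The deposited values are normalized CPM, a signal scaled within each library. Column totals differ between the groups (918783 to 952458 in depleted libraries and 1018766 to 1031234 with asparagine). Columns were matched to samples by arm and replicate number in their names, which are not the sample titles; the short name of the depleted arm could stand for asparaginase. In every column 100% of values were whole multiples of 1 step within 1e-06 of a read, which gave the reads in the table.

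In R 4.3.3, limma 3.58.1 was fitted to log2(CPM + 1) of the 11892 genes that reached 1 CPM in 3 or more libraries, with the group as the only term and an intensity trend. Adjusted p-values are Benjamini-Hochberg over all genes tested, called under 0.05. Log2 fold changes are depleted minus with asparagine on that scale, and "-fold" values are ratios of mean CPM. The GC correction removed a lowess trend (span 0.3) of each library's deviation from the gene's mean against the median GC content of its transcripts in GENCODE 29, for genes with a value (95.4%). The model was also run on simulated data with genes drawn independently. These data had neither the GC trend nor the shift of depleted library 1, so that run cannot speak to either. The members, lists and tests were chosen with earlier results of these data known. All 10 factors are named, and of each other list up to 6 called genes with the largest changes, provided the mean of the higher group was 5 CPM or more. RUNX2, POU2F1, POU2F2, CBFB, TCF12, ID2, ERG, CD79A, RAG1, RAG2, CSPG4, PROM1 and DNTT were named after their values were seen. A few items are counted in the lists but not reported here by name. The labels do not say whether replicate numbers pair the libraries, so the main fit has no replicate term.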

Additional observations from a re-analysis of the deposited data

How the results depend on the processing

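A pseudocount of 0.25 or 4 CPM, leaving out the filter, filtering at 5 CPM, rescaling by trimmed means or median ratios, moderation without a trend or robust, voom weights on the recovered reads and an uncorrected fit to genes with a GC value changed no call among the 51 named genes tested there (IKZF3 and DNTT are not tested at 5 CPM). Voom and the last fit, and the GC correction without depleted library 1, were chosen after seeing the data. The planned count test on the recovered reads was not run, and voom was fitted to those reads in its place.

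With each library left out in turn, 1728 to 4812 of all genes were higher (2987 with all libraries) and 1814 to 4913 lower (3116), 2 to 6 of the 10 factors were higher and 0 to 3 lower, and 15 to 35 genes of the other lists were higher (26) and 11 to 30 lower (17). The most calls came without depleted library 1. At an adjusted p under 0.01, 1612 of all genes were higher and 1703 lower, 2 factors (POU2AF1 and BACH2) were higher and 0 lower (limma; 2 of the 10 had fallen at 0.05), and 15 genes of the other lists were higher and 11 lower. Quantile normalization left 1 factor lower (TCF3). The GC correction gave 3988 higher and 3894 lower of all genes and 27 lower genes of the other lists. Without depleted library 1 it gave 4486 higher and 4390 lower of all genes and 30 lower genes of the other lists.

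With the replicate number as a block, 2824 of all genes were higher and 2989 lower, and 1 factor was lower (TCF3, with LEF1 lost). With the block and the GC correction 26 genes of the other lists were lower. The deviations of libraries with the same number from their group means correlated at 0.0832, -0.645 and 0.686. Deviations within a group depend on each other, so these values cannot decide whether the numbers pair the samples.

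IKZF3 changed sign with quantile normalization (-0.14), when depleted library 3 (-0.14) or library 2 with asparagine (-0.025) was left out (range over libraries -0.14 to 0.23), and with the GC correction, with or without the block (-0.055 both). TCF12 turned to -0.021 without depleted library 2 and -0.018 without depleted library 3 (range over libraries -0.021 to 0.33), -0.17 with the GC correction with or without the block, and -0.037 with the correction and without depleted library 1. ID2 turned to -0.068 with quantile normalization. CD79A was -0.21 without depleted library 1 and -0.040 when library 3 with asparagine was left out (range over libraries -0.21 to 0.15). The cause of these changes was not tested. Levels near the 0.0598 to 0.0920 CPM that 3 reads are worth cannot be resolved, which none of the factors approached.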
